A study of Homo sapiens with 4 samples.

Results

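The genes described here are 9 genes of HLA class I antigen presentation, HLA-B, HLA-C, HLA-E, HLA-F, B2M, TAP1, TAP2, TAPBP and ERAP1, out of 58735 genes in the deposited expression files. They were chosen by gene symbol, and each symbol matched exactly 1 gene. RNA was sequenced from the human glioblastoma (GBM) cell lines U251 and U87, 1 Control library and 1 library after 48 h of Bru for each line. Bru is brusatol, a plant quassinoid which the study dissolved in DMSO and gave at the IC50 of the line. Both lines are long-established cultures without immune or stromal cells, the labels state no genetic change in either, and they do not say whether a library came from 1 culture or from a pool. Since there was 1 library per condition, no p-value was computed, and every interval below covers the counting error of reads only, not the spread between cultures.

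Class I molecules show peptides from inside the cell to CD8 T cells and natural killer cells. A heavy chain (HLA-B, HLA-C, HLA-E or HLA-F) pairs with the light chain beta-2-microglobulin, the product of B2M. Peptides are cut by the proteasome, carried into the endoplasmic reticulum by the TAP1-TAP2 transporter, trimmed by the aminopeptidase ERAP1 and loaded with the help of tapasin, the product of TAPBP. Interferons and NF-kB are known inducers of most of these genes, and the related class II molecules belong mainly to professional antigen-presenting cells.

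Of the 9 genes, 7 lie on chromosome 6 within 3.59 Mb (chr6:29722775-33314387, GRCh38), in the major histocompatibility complex. B2M lies on chromosome 15 (chr15:44711487-44718877, plus strand) and ERAP1 on chromosome 5 (chr5:96760810-96808100, minus strand). HLA-B (chr6:31269491-31357188) and HLA-C (chr6:31268749-31272130) are neighbours on the minus strand, and the annotated span of HLA-B runs over most of HLA-C, although only 35 exon bases are shared, 1.15% of those of HLA-B and 1.40% of those of HLA-C.

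The stretches upstream of HLA-B, HLA-C and B2M are shown because HLA-B and HLA-C had opposite Bru to Control ratios in U251 and B2M was almost level. They are RefSeq sequence of GRCh38.p14, read 5′ to 3′ on the strand of the gene and counted back from the RefSeq start site, with bases in annotated exons of the gene left out. Capitals mark matches, on either strand, to an interferon-response-type (ISRE-type) motif TTTCNNTTC or TTCNNTTTC, to the NF-kB consensus, to the CRE core TGACG or to the CCAAT box. Adjacent or overlapping matches run together.
HLA-B, chr6:31357189-31357429, bases -250 to -10: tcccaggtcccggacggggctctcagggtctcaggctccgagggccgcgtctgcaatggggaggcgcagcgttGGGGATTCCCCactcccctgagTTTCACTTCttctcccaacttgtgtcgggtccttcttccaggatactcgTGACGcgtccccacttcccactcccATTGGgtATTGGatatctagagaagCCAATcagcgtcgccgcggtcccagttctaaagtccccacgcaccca
HLA-C, chr6:31272131-31272342, bases -250 to -39: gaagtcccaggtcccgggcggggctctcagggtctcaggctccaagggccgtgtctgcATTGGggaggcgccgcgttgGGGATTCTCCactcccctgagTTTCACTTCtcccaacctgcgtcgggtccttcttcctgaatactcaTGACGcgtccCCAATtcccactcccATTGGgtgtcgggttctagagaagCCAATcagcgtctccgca
B2M, chr15:44711267-44711486, bases -250 to -31: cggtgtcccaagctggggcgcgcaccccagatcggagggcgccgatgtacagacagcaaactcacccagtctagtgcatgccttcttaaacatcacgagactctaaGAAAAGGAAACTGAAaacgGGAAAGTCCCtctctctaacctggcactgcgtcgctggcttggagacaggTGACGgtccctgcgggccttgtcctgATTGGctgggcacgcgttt

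The HLA-B and HLA-C stretches had the same base in 191 of 212 aligned columns, an identity of 90.1%, and both held TTTCACTTC upstream of TGACG. RefSeq windows were matched for 8 of the 9 genes, 10 windows in all. The ISRE-type motif was found in the 250 bases upstream of all 8, compared with 12.4% of 35116 such windows over all genes. TAP1 and ERAP1 had 2 windows each and held it in 1 of them. A gene counts here if any of its windows held a motif, whereas the shares over all genes count single windows. The NF-kB consensus was found for 6 of the 8 genes (9.96% of all windows), TGACG for 4 (21.2%) and CCAAT for 6 (32.0%). These motifs were picked with the sequences in view, so the counts describe the letters and are no test. In B2M, TAP1, TAP2 and TAPBP there were 2 ISRE-type matches that overlapped each other. For the genes whose longer stretch is not shown, the 30 bases around the ISRE-type match (capitals) are given below. Those of TAP1 and TAPBP lie within annotated first exons of transcripts that start farther upstream. That of ERAP1 lies upstream of the gene span given above, which ends at base 96808100. The ERAP1 window at that end (chr5:96807946-96808195) held no ISRE-type match.
HLA-F, chr6:29723269-29723298, plus strand: tccccagagtTTCTCTTTCtctcccaaccc
TAP1, chr6:32853815-32853844, minus strand: ggccgctTTCGATTTCGCTTTCccctaaat
TAP2, chr6:32838781-32838810, minus strand: tggctgggGAAGCGAAAGCGAAagctgccc
TAPBP, chr6:33314079-33314108, minus strand: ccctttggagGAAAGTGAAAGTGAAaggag
ERAP1, chr5:96814306-96814335, minus strand: tcttgcataaTTTCCTTTCttttagtgtga

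Expression was deposited as FPKM, fragments scaled to gene length and library size, and the whole number of fragments behind each value, called reads here, could be recovered. The libraries held between 17083896 and 21453561 reads on genes. The 9 genes took 0.121% of the reads in both U251 libraries and 0.157% (Control) and 0.155% (Bru) in U87. As for the identity of the cells, VIM and CD44 were high in all 4 libraries (VIM at 606 to 701 FPKM). SOX9 was at 70.8 (Control) and 51.4 FPKM (Bru) in U251 and at 16.9 and 18.0 in U87. SOX2 was at 129 and 91.2 FPKM in U251 but had 0 and 2 reads in U87 Control and Bru. The astrocyte filament gene GFAP was at 2.42 (Control) and 1.08 FPKM (Bru) in U251 and 0.215 and 0.147 in U87, OLIG2 had 2 to 61 reads per library, and S100B had 9 reads in U251 Control and 0 elsewhere. The 8 glial and glioma markers summed to 1154 (Control) and 895 FPKM (Bru) in U251 and to 802 and 762 in U87, with VIM the largest part of each sum. Of 11 leukocyte markers, 4 had no read in any library, among them CD3D, CD3E and MS4A1. All 11 together summed to 0.490 (Control) and 1.02 FPKM (Bru) in U251 and to 0.889 and 1.90 in U87. The sum was thus higher in each Bru library, on few reads. ITGAM had 1 and 13 reads in U251 and 8 and 37 in U87, whereas PTPRC had 3 and 2 in U251 and 0 in U87.

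In both lines every member was detected, and no member passed 2-fold with Bru in either line. A log2 ratio below compares Bru with Control on FPKM + 0.1, and a ratio with its 95% interval is on FPKM without that addition. Genes with a mean of at least 1 FPKM over the 4 libraries were set side by side, 12949 in all, and 8 of the 9 members reached this minimum. HLA-F, with a mean of 0.962 FPKM, fell just short. In U251, 0 of the 8 passed 2-fold, where 8.8% of all genes did. In U87, again 0 of the 8 did, where 3.34% of all genes did. With so few members, 0 is close to these shares.

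Although no member passed 2-fold, they did not move as one group in U251. HLA-B, HLA-E and TAP1 were higher in the Bru library, whereas HLA-C, HLA-F, TAPBP and ERAP1 were lower, and B2M and TAP2 were close to level. Most of these differences were larger than the counting error of the reads. The 95% counting interval left out 0 for 7 of the 8 members in U251, where it did for 66.7% of all genes, and for 6 of the 8 in U87, where it did for 43.7%. That call, chosen after the values were seen, says that 2 libraries differed and not that the conditions did.

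**Figure D1:**
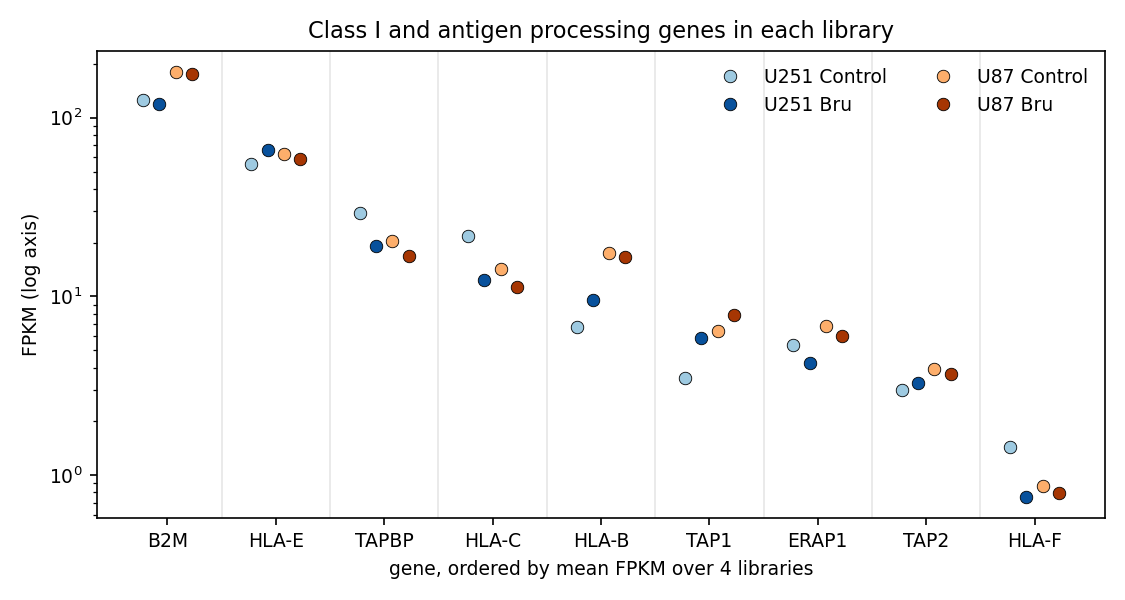
FPKM (log axis) of the 9 genes in each of the 4 libraries, 1 point per library with no error bar, ordered by mean FPKM. B2M is the highest gene in every library and HLA-F the lowest, and the HLA-B points of U87 lie above those of U251.

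Among these heavy chains, HLA-E (chr6:30489467-30494205, plus strand), a nonclassical molecule read mainly by natural killer cell receptors, was the most abundant per length. It was at 54.8 FPKM (Control) and 66.2 (Bru) in U251 and 62.3 and 58.5 in U87. The U251 Bru library was thus the highest and U251 Control the lowest. The ratio was 1.21 in U251 (95% interval 1.15 to 1.27) and 0.939 in U87 (0.894 to 0.987).

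HLA-B, a classical heavy chain that presents to CD8 T cells, was at 6.72 FPKM in U251 Control and 9.60 in U251 Bru, from 430 and 543 reads. In U87 it was at 17.6 FPKM in Control and 16.6 in Bru, from 969 and 881 reads. Both U87 libraries therefore lay above both U251 libraries. With Bru, the ratio was 1.43 in U251 (1.26 to 1.63), a log2 ratio of 0.51, and 0.944 in U87 (0.861 to 1.04), a log2 ratio of -0.08 whose interval holds 0.

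HLA-C, the other classical heavy chain of the group, which also serves as a ligand of inhibitory receptors on natural killer cells, went the other way. It was at 21.7 (Control) and 12.4 FPKM (Bru) in U251, and at 14.3 and 11.3 in U87. The Bru library was the lower one in both lines. The ratio was 0.570 in U251 (0.515 to 0.631) and 0.787 in U87 (0.698 to 0.886), with log2 ratios of -0.81 and -0.34. In U251, 14.9% of all genes had a larger absolute log2 ratio than HLA-C.

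The ratio of HLA-B to HLA-C within a library was 0.309 (Control) and 0.775 (Bru) in U251 and 1.23 and 1.47 in U87. With the length of the principal transcript, an alternative added after the data were seen, it was 0.374 and 0.936 in U251 and 1.48 and 1.78 in U87. With either length HLA-C was the more abundant of the pair in U251 Control and HLA-B in both U87 libraries. In U251 Bru, with 543 reads of HLA-B and 576 of HLA-C, the pair was near level by transcript length, so no order is given there. Added together, the pair had 1573 reads (Control) and 1119 (Bru) in U251 and 1617 and 1372 in U87. Scaled by library size, the sum had a log2 ratio of -0.31 (-0.42 to -0.20) for U251 and -0.18 (-0.29 to -0.08) for U87. Of the 50-base stretches of HLA-B transcripts, 2.48% occur also in HLA-C transcripts, and the files do not say to which gene such reads were given. The exons of HLA-B also overlap the antisense AL671883.2 over 542 bases (17.8%), and as the counting is not stated to use strand, the reads of the 2 cannot be told apart there. The heavy chains also vary between people, and how well the alleles of each line match the reference was not tested.

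HLA-F (chr6:29722775-29738528, plus strand), a nonclassical heavy chain, was the least abundant member. It had 130 reads (Control) and 61 (Bru) in U251 and 68 and 60 in U87, or 1.43, 0.758, 0.867 and 0.794 FPKM. U251 Control stood above the other 3 libraries, which were close to each other. The ratio was 0.531 in U251 (0.385 to 0.725) and 0.916 in U87 (0.636 to 1.32), and this wide interval means that a difference in U87 was not detectable at this depth. Its exons overlap 3 antisense annotations, the largest being AL645939.1 over 701 bases (16.1%), and without stated use of strand their reads cannot be told apart from those of HLA-F.

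B2M, the light chain shared by all class I molecules, was the most abundant member in every library, at 125 FPKM (Control) and 119 (Bru) in U251 and 180 and 176 in U87. The 2 lines did not overlap, and within a line the libraries lay close together. With Bru, the ratio was 0.951 in U251 (0.929 to 0.973) and 0.978 in U87 (0.958 to 0.997). These reductions of a few percent turned into increases of at most 0.025 on the log2 scale under some other scalings of the libraries, so no direction is given for B2M. None of its 50-base stretches occurs in the transcripts of another gene.

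TAP1 (chr6:32845209-32853978, minus strand), a subunit of the peptide transporter, showed the largest increase of the group. It was at 3.48 FPKM (Control) and 5.82 (Bru) in U251 and 6.43 and 7.88 in U87, from 351, 518, 558 and 659 reads. Bru was the higher library in both lines, and of the 8 members other than B2M, TAP1 was the only one for which this held. The ratio was 1.67 in U251 (1.46 to 1.92) and 1.23 in U87 (1.09 to 1.37), with log2 ratios of 0.72 and 0.29. In U251 18.8% of all genes and in U87 28.4% of all genes had a larger absolute log2 ratio.

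TAP2 (chr6:32821833-32838780, minus strand), the partner subunit, did not follow TAP1. It was at 3.01 FPKM (Control) and 3.26 (Bru) in U251 and 3.91 and 3.67 in U87. The ratio was 1.08 in U251 (0.940 to 1.25) and 0.937 in U87 (0.818 to 1.07), and both intervals hold 1. The ratio of TAP1 to TAP2 within a library was 1.16 (Control) and 1.78 (Bru) in U251 and 1.64 and 2.15 in U87 with the gene lengths in the files. With the length of the principal transcript, an alternative added after the data were seen, it was 0.735 and 1.13 in U251 and 1.04 and 1.36 in U87, so which subunit was the more abundant in U251 Control depends on the length, whereas the step between Control and Bru does not. The exon bases of both subunits are partly shared with other annotations, TAP1 with the antisense PSMB8-AS1 over 456 bases (9.49%) and TAP2 with the same-strand AL669918.1 over 2064 bases (32.3%).

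TAPBP (chr6:33299694-33314387, minus strand), which encodes tapasin, the protein that holds the heavy chain next to the transporter, was at 29.4 FPKM (Control) and 19.2 (Bru) in U251 and 20.3 and 16.8 in U87. The Bru library was the lower one in each line. The ratio was 0.652 in U251 (0.615 to 0.692) and 0.827 in U87 (0.772 to 0.886). Per TAPBP FPKM there was 0.119 FPKM of TAP1 in U251 Control and 0.303 in U251 Bru, and 0.316 in U87 Control and 0.468 in U87 Bru. With principal transcript lengths these ratios were 0.0719, 0.184, 0.192 and 0.284.

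ERAP1, which trims peptides in the endoplasmic reticulum, was at 5.35 FPKM (Control) and 4.22 (Bru) in U251 and 6.85 and 6.02 in U87. It was lower in the Bru library of each line, with a ratio of 0.788 in U251 (0.710 to 0.874) and 0.878 in U87 (0.799 to 0.964). As a share of Control this is a loss of 21.2% in U251 and 12.2% in U87.

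**Figure D2:**
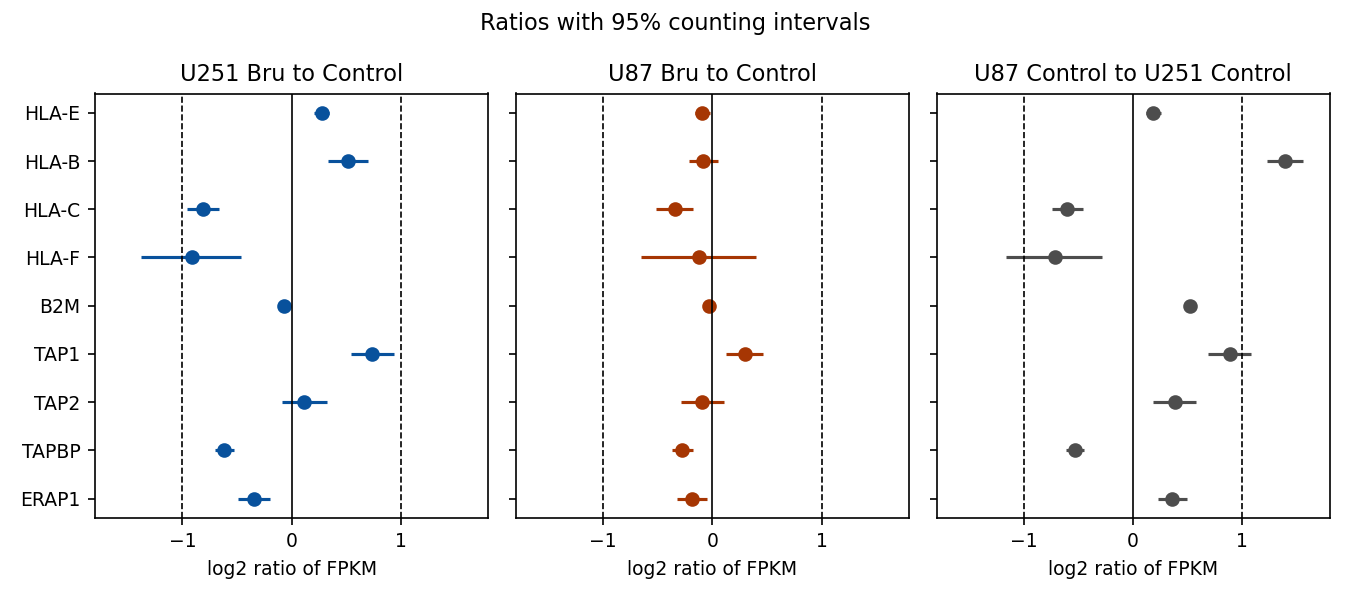
Log2 ratio of FPKM (points) with its 95% counting interval (lines) for each of the 9 genes, for Bru to Control in U251, Bru to Control in U87, and U87 Control to U251 Control. Dashed lines mark 2-fold, and HLA-B between the Control libraries is the only point beyond them.

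Over the 8 members that reached the minimum, the log2 ratios had medians of 0.02 (U251) and -0.09 (U87), beside -0.03 and -0.04 over all 12949 genes. With HLA-F added, the medians over 9 were -0.07 and -0.09. In U251, the members ranged from -0.83 (HLA-F) to 0.72 (TAP1), and the quartiles of all genes were -0.38 and 0.30. In U87, they ranged from -0.34 (HLA-C) to 0.29 (TAP1), and the quartiles of all genes were -0.20 and 0.12. In bulk RNA, fewer cells of a kind and less RNA per cell cannot be told apart.

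B2M, for which no direction is given, is left aside in the next counts unless stated. The log2 ratio was farther from 0 in U251 than in U87 for 8 of the 8 other members under each pseudocount and scaling tried. On FPKM + 0.1 without rescaling, it was so for 71.8% of all genes, and for 9 of the 9 members with B2M counted. Scaled to the 75th percentile or without mitochondrially encoded genes, it was so for 8 of the 9, as B2M was then farther from 0 in U87. HLA-F, below the minimum, is among the 8 but not among all genes. In 5 of the 8 members other than B2M the log2 ratio had the same sign in both lines, as it had for 65.6% of all genes. For HLA-B, HLA-E and TAP2 it was above 0 in U251 and below 0 in U87, and HLA-E was the only one of these whose counting interval left out 0 in both lines, since that of HLA-B in U87 and those of TAP2 in both lines hold it. On FPKM without the addition of 0.1, the difference of the log2 ratios, U251 minus U87, was 0.60 for HLA-B (95% counting interval 0.37 to 0.82), 0.36 for HLA-E (0.27 to 0.46) and 0.45 for TAP1 (0.19 to 0.70). It was -0.46 for HLA-C (-0.69 to -0.24), -0.34 for TAPBP (-0.47 to -0.21) and -0.79 for HLA-F (-1.45 to -0.12). For B2M it was -0.04 (-0.08 to 0.0039), for TAP2 0.21 (-0.07 to 0.49) and for ERAP1 -0.16 (-0.35 to 0.04), and these intervals hold 0. The interval left out 0 for 5 of the 8 members at or above the minimum and for 52.9% of all genes with a read in each library, so the members did not stand out here. The doses were those of each line, so line and dose cannot be told apart.

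**Figure D3:**
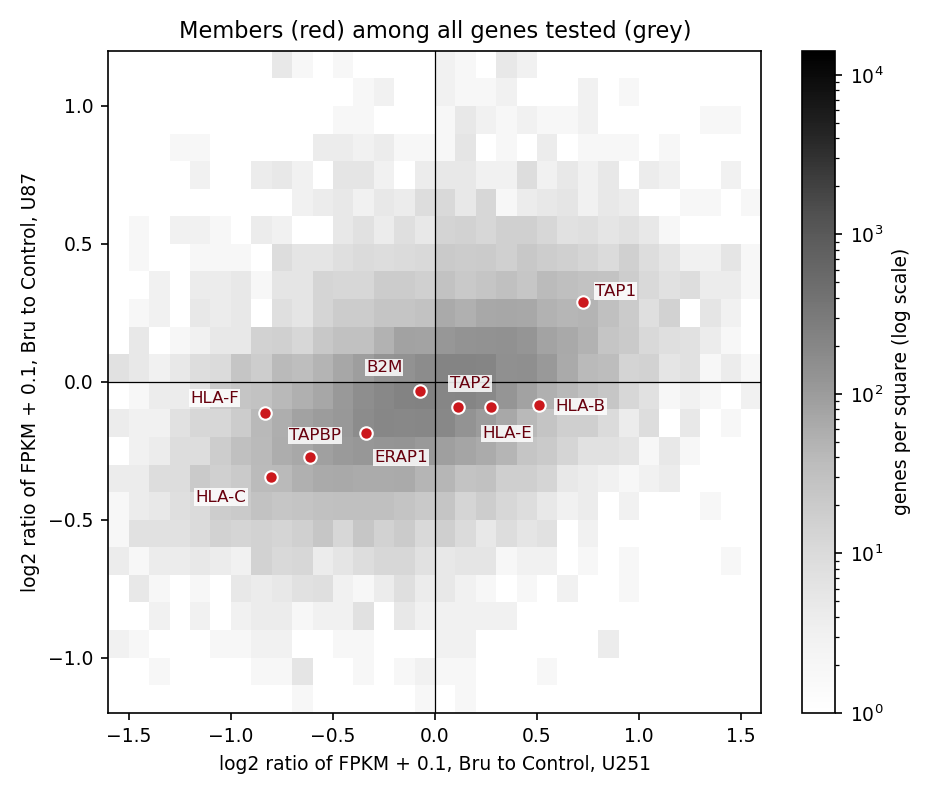
Log2 ratio of Bru to Control in U251 (x axis) against U87 (y axis), both on FPKM + 0.1, for the 9 members (red points) and for all genes tested (grey squares, darker with more genes on a log scale). HLA-B, HLA-E and TAP2 lie to the lower right, TAP1 to the upper right and the other 5 to the lower left, and 552 genes lie outside the frame.

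Between the Control libraries, most members were higher in U87. HLA-B was the only member past 2-fold, at 2.62 times the U251 level (2.33 to 2.94), that is 1 of the 8 members at or above the minimum, where 30.4% of all genes passed 2-fold. TAP1 was at 1.85 times (1.61 to 2.11), B2M at 1.44 (1.41 to 1.47), TAP2 at 1.302 (1.14 to 1.49), ERAP1 at 1.28 (1.17 to 1.40) and HLA-E at 1.14 (1.08 to 1.19). HLA-C (0.658, 0.597 to 0.725), TAPBP (0.693, 0.654 to 0.734) and HLA-F (0.607, 0.446 to 0.820) were lower in U87. The counting interval left out 0 for 8 of the 8 members and for 81% of all genes. The median was 0.36 over the 8 members and -0.01 over all genes. The Control libraries also enter the Bru ratios above, so these are not independent comparisons, and a difference between lines cannot be told apart from one between libraries.

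The order of the levels in U251 Control was B2M, HLA-E, TAPBP, HLA-C, HLA-B, ERAP1, TAP1, TAP2 and HLA-F. In U87 Control it was B2M, HLA-E, TAPBP, HLA-B, HLA-C, ERAP1, TAP1, TAP2 and HLA-F. ERAP1 and TAP1 were near neighbours in U87 Control, at 6.85 and 6.43 FPKM, and in both Bru libraries TAP1 stood above ERAP1. The order depends on the gene length in the files, which for B2M was 6079 bases while its longest principal transcript has 1705. With the principal transcript as the length, B2M stayed first and HLA-F last in all 4 libraries, and TAPBP came second in U251 Control, ahead of HLA-E. By that length TAP1 stood above ERAP1 in U87 Control too, while ERAP1 stayed above TAP1 in U251 Control.

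The other genes of the pathway were read from lists, of which each gene is described against the same minimum of 1 FPKM. Among 13 peptide loading and trimming partners, all of which reached it, 11 were below 0 in U251 and 10 in U87, where 52.1% and 56.7% of all genes were, and the medians were -0.19 and -0.14. In each line some of these log2 ratios were about as near 0 as that of B2M. Their signs may turn under other scalings of the libraries, which was not tested for this list. The chaperone of the loading complex CALR (calreticulin) was at 395 FPKM (Control) and 264 (Bru) in U251 and 539 and 437 in U87. PDIA3, the disulfide isomerase bound to tapasin, was at 90.7, 51.3, 121 and 86.4 FPKM in the same order. Like TAPBP, both were lower in each Bru library, with log2 ratios of -0.58 and -0.30 for CALR and -0.82 and -0.48 for PDIA3. ERAP2, the trimming partner of ERAP1, was at log2 ratios of -0.77 and -0.21 in U251 and U87. BLMH, a cytosolic peptidase, was the only gene of the list past 2-fold, at -1.01 in U251 (-0.42 in U87).

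The 11 catalytic proteasome subunits and activators had medians of 0.40 (U251) and 0.00 (U87). Above 0 were 8 of them in U251 and 6 in U87, beside 6110 and 5474 of all 12949 genes. With so few genes, the U87 count is close to that share, and PSME4 was at 0.0045 there. None was past 2-fold, where 8.8% and 3.34% of all genes were. The immunoproteasome subunit PSMB9, whose gene lies beside TAP1, was at 0.667 FPKM in U251 Control (43 reads) and 1.12 in U251 Bru (64 reads), and at 6.05 and 6.58 in U87. Without the addition of 0.1, the log2 ratio of PSMB9 was 0.75 (0.17 to 1.34) for U251 and 0.12 (-0.10 to 0.34) for U87. PSMB8 had log2 ratios of 0.40 and -0.04, and PSMB10, the remaining immunoproteasome subunit, -0.10 and -0.19. Constitutive PSMB7 (0.70 and 0.13) and the assembly factor POMP (0.67 and 0.10) were also higher in both Bru libraries.

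Of 20 factors known to act on class I promoters, 17 reached the minimum, with medians of 0.05 (U251) and -0.08 (U87) and none past 2-fold. RELA, a subunit of NF-kB, was at 15.8 FPKM (Control) and 26.7 (Bru) in U251 and 19.6 and 24.4 in U87, with log2 ratios of 0.76 and 0.31. IRF1, which binds ISRE-type sites, was at 3.08, 4.22, 2.94 and 3.96 FPKM, with log2 ratios of 0.44 and 0.42. NLRC5, the class I transactivator, differed in direction between the lines, at 0.35 in U251 and -0.24 in U87. RFXAP, a part of the RFX complex, was at -0.65 and -0.10.

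The interferon-stimulated genes went mostly the other way from TAP1 and HLA-B in U251. Of 38, 32 reached the minimum, with medians of -0.46 in U251 and -0.11 in U87. Below 0 were 27 of them in U251 and 22 in U87, beside the shares of 52.1% and 56.7% of all genes. The U87 count is not far from its share. In each line some of these log2 ratios were about as near 0 as that of B2M. Their signs may turn under other scalings of the libraries, which was not tested for this list. Past 2-fold were 4 of the 32 in U251, all lower, where 8.8% of all genes were past 2-fold in either direction. In U87, IFITM1 and BST2 were past 2-fold, but they reached the minimum through U251 and are not read as changed in U87. Both are nevertheless among the 22 counted as below 0 there. IFI27 (23 and 15 reads in U87 Control and Bru) and GBP3 (29 and 42) also reached the minimum through U251, and enter the U87 median. OASL reached it through U87, with 49 and 29 reads in U251 Control and Bru. OAS3, an antiviral sensor, was at a log2 ratio of -1.14 (U251) and -0.08 (U87), OAS1 -1.05 and -0.44, and the membrane protein IFITM2 -1.78 and -0.26. IFITM1 was at -1.48 in U251. BST2 (tetherin) was at 323 FPKM in U251 Control and 168 in U251 Bru. In U87, the Control library held 6 reads of IFITM1 and 8 of BST2 and the Bru library 0 of either, so no fold is given. Of 9 interferon receptors, kinases and their inhibitors, 7 reached the minimum, with medians of -0.25 and -0.19, and IFNGR2, a chain of the interferon-gamma receptor, was at -1.01 in U251 and -0.15 in U87.

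**Figure D4:**
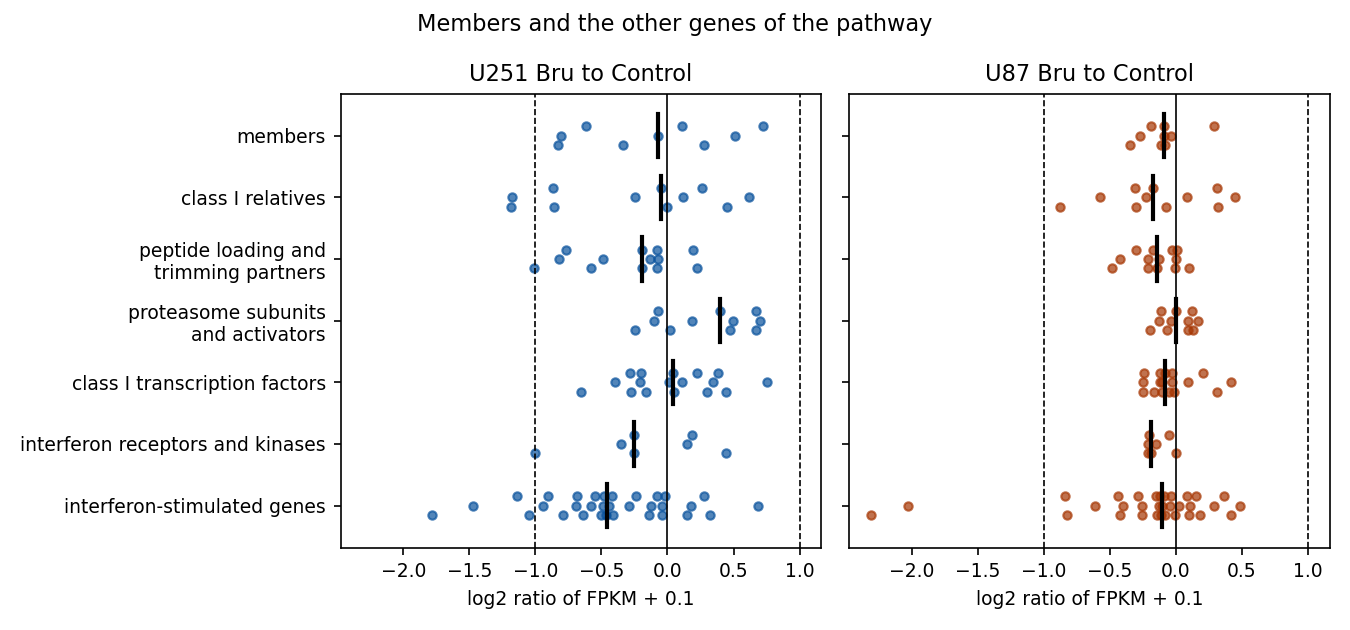
Log2 ratio (FPKM + 0.1) of Bru to Control, per line, for the 9 members and for the genes of 6 lists with a mean of at least 1 FPKM. Each point is a gene, black bars are medians and dashed lines mark 2-fold, and the proteasome list has the highest median in U251 (0.40) and the interferon-stimulated genes the lowest (-0.46).

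Among 21 class I relatives, 11 reached the minimum, with medians of -0.05 in U251 and -0.17 in U87. HFE, which regulates iron uptake and pairs with beta-2-microglobulin, was at log2 ratios of -1.18 and -0.88 in U251 and U87. FCGRT, the neonatal Fc receptor heavy chain and also a partner of beta-2-microglobulin, was at 4.76 FPKM (Control) and 2.04 (Bru) in U251 and 3.62 and 4.98 in U87, so that it was lower with Bru in U251 (-1.18) and higher in U87 (0.45). HLA-G had no read in any library, and a count of 0 allows up to 3 reads.

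Most class II genes with reads had them mainly in U87, HLA-DOB being an exception with 3 and 8 reads in Control and Bru of each line. HLA-DRB1 had 0 reads in both U251 libraries, 304 in U87 Control and 201 in U87 Bru, and the invariant chain CD74 had 0, 5, 837 and 486 reads in U251 Control, U251 Bru, U87 Control and U87 Bru. These genes were named after their values were seen. Of 13 class II and linked genes, 5 reached the minimum, all through U87, and all 5 were below 0 with Bru there, as were 56.7% of all genes, with a median log2 ratio of -0.72. HLA-DRB5 had 77 and 21 reads in U87 Control and Bru, and shares sequence with other DRB genes. CTSS, a lysosomal protease of the class II pathway, had 4 and 15 reads in U251 and 877 and 794 in U87. Its log2 counting interval in U87 (-0.23 to 0.05) holds 0. In the glial and glioma list 5 of 8 markers reached the minimum, with a median of -0.46 in U251. The intermediate filament gene NES was past 2-fold lower in U251 (-1.30), at 125 FPKM (Control) and 50.6 (Bru). In U87 it was at 1.46 and 0.569 FPKM, from 147 and 55 reads. As NES and SOX2 reached the minimum through U251, no change of NES and no median of the list is read in U87. The part of these markers in the class I values was not tested.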

How the data were processed

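RNA of U251 and U87 cells, Control and Bru, was sequenced as paired-end reads with 1 library per condition. Values were deposited by the authors as gene-level FPKM, together with gene lengths. The submitters' processing notes name HISAT2 2.0.5, StringTie 1.3.3b and featureCounts 1.5.0-p3 and the build hg18, whereas all 58735 genes had the start and end of GENCODE release 29 (GRCh38), which was used for positions. FPKM times gene length was a whole multiple of 1 step in each library (largest deviation 4.35e-05 reads), which gave the reads per gene and a library size of 17406238 to 20974002. At this depth 3 reads on a gene of 1 kilobase correspond to 0.143 to 0.172 FPKM.

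Log2 ratios were computed on FPKM + 0.1 for genes with a mean of at least 1 FPKM over 4 libraries, and an absolute log2 ratio above 1 was called past 2-fold. Intervals at 95% are exact Clopper-Pearson intervals of the share of reads, turned into a ratio (for U251 minus U87, a delta-method interval); PCR reads without molecular identifiers are not independent molecules, so they cover counting error only. Shared sequence was counted in 50-base stretches of GENCODE transcripts. On simulated reads for 12949 genes per comparison, 194, 194 and 198 of 200 genes changed 4-fold were called in U251, in U87 and between Control libraries. These reads carried counting error only and changes larger than any member had, so the result says nothing about changes of the members' size. Python 3.11.15, scipy 1.17.1 and pandas 2.3.3 were used.

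The members, the lists and the tests were chosen with earlier results of these data known. Genes named from a list are those past 2-fold in a line (at most 5, by mean log2 ratio), or otherwise up to 3 with the largest mean log2 ratio, and 8 fixed genes (PSMB8, PSMB9, PSMB10, NLRC5, IRF1, CALR, PDIA3 and ERAP2). VIM, CD44, SOX2, GFAP, OLIG2, S100B, CD3D, CD3E, MS4A1, ITGAM, PTPRC, HLA-G, HLA-DRB1, HLA-DOB and CD74 were named in addition, after their values were seen. SOX9, PSME4, IFI27, GBP3 and OASL were also named in this way. Of the genes first listed, 3 are not reported here and enter no count of a list. Alternatives were 2 pseudocounts, 5 scalings, 3 filters on low values and, for counts over all genes, protein-coding genes only.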

Additional observations from a re-analysis of the deposited data

Results flagged for a closer look

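For 3 members and 6 other named genes, the Bru library lay above Control in one line and below it in the other. The difference between the lines was not tested, as each line has 1 library per condition. The log2 ratio in U251 minus that in U87, on FPKM + 0.1, was 0.59 for HLA-B, 0.36 for HLA-E and 0.20 for TAP2. It was 0.44 for PSMB8, 0.59 for NLRC5, 1.09 for CTSS, which rests on 4 and 15 reads in U251, and -1.63 for FCGRT. It was 1.61 for CD74, with 0 and 5 reads in Control and Bru of U251, and -1.04 for SOX2, with 0 and 2 reads in those of U87, so the sign of either rests on few reads in that line. For PSMB8 the log2 ratio in U87 was -0.04, and its counting interval (-0.19 to 0.12) holds 0. Its sign there may turn under other scalings of the libraries, which was not tested. No group had enough libraries to look for one that stands apart.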

How the results depend on the processing

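The labels carry no replicate numbers, so there was no replicate block to fit, and a fit that takes the 2 lines as replicates of Bru was not run. With 1 library per condition, none could be left out. Over the 10 alternatives that bear on members, the number of members past 2-fold stayed at 0 in U251, 0 in U87 and 1 between Control libraries. Of 189 recomputed log2 ratios of single members, 175 moved by less than their counting error, 7 moved by more in the same direction and 7 reversed, all of them B2M. In U251, B2M came to 0.014 when scaled to the 75th percentile, 0.0056 when scaled without mitochondrially encoded genes and 0.014 when scaled to the recovered reads. In U87 it came to 0.025, 0.011 and 0.0094 under the same scalings and to 0.0067 when centred on the median gene. The median over members in U251 ranged from -0.07 to 0.11. Called by a 95% counting interval instead, a rule added after the data were seen, 7 of 8 members differed in U251, 6 in U87 and 8 between Control libraries. The same rule called 66.7%, 43.7% and 81% of all genes. With the principal transcript as gene length, also added later, 11 of 36 ranks changed, by at most 2 places, and TAP2 came before TAP1 in U251 Control.

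The share of all genes past 2-fold depended more on the settings. It was 4.76% in U251 and 1.47% in U87 with a pseudocount of 1. Without a filter it was 7.38% in U87 and 17.95% between Control libraries, and with a minimum of 0.1 FPKM 16.8% in U251 and 12.6% in U87. In U87 it was 1.09% with a minimum of 5 FPKM and 0.885% over protein-coding genes.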
